A study of Homo sapiens with 4 samples.

Results

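Tight ELF5 peak groups are stretches where neighbouring ChIP-seq summits lie less than 400 bp apart. They were sought on chromosomes 1 to 22 in the authors' deposited list of ELF5 peaks, on hg19, by taking each summit as the peak start plus the deposited summit offset and linking every summit to the next one when the distance was under 400 bp. The rule found 11878 peaks among the 113831 autosomal peaks of a list of 115384. They formed 5673 groups, of which 5191 were exact pairs of 2 peaks, 437 held 3, 41 held 4, 3 held 5 and 1 held 6.

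The peaks came from T47D, an established cell line of human breast epithelium of the luminal A type, grown in RPMI with 10% serum and insulin and given no treatment. The series held 3 ELF5 ChIP samples, made with antibody sc-376737 per the labels, and 1 input sample of these cells. The shared protocol text lists other antibodies, used on other cell lines, and no label says whether the 3 samples came from separate cultures. The list gives 1 set of values for each peak and names no single sample for them. Whether and how samples were pooled was not given. Error from replicate to replicate is therefore unknown here. All members were chosen by summit positions of the same list that gives their widths and enrichments. Widths and enrichments are therefore described and not tested. Below, 95% intervals of folds and pileups cover counting error only, and those of shares treat pairs or peaks of this 1 list as independent. None covers error between replicates.

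ELF5 is a transcription factor of the ETS family, whose members bind DNA at short sites with a GGAA core. It is known in the mammary gland for its role in the luminal progenitor and alveolar lineages. ChIP-seq reads come from sonicated fragments, so a peak is a blurred image of a bound site, and the peak list reports 1 summit, the highest point, for each peak. Nearby sites can be listed as separate peaks or as 1 wider peak, depending on how the signal dips between them. The libraries here were size-selected for fragments of 200 to 300 bp, per the labels. Sequence under the peaks was not analysed here.

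The tight groups covered the rise of the spacing distribution and the start of its flat top. Of 113809 distances between neighbouring autosomal summits, 6205 were under 400 bp, with a median of 319 bp and quartiles at 274 and 360 bp. The shortest was 71 bp. Distances within the library's fragment range, from 200 to 300 bp, made up 2162 of the 6205, and 3815 were longer than 300 bp. Only 228 were under 200 bp, and 44 were under 135 bp, the width of the narrowest peak in the list. The number of neighbours per 25 bp rose steeply from about 200 bp and had levelled off by 400 bp, so the limit lies close to the densest part of the distribution.

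**Figure D1:**
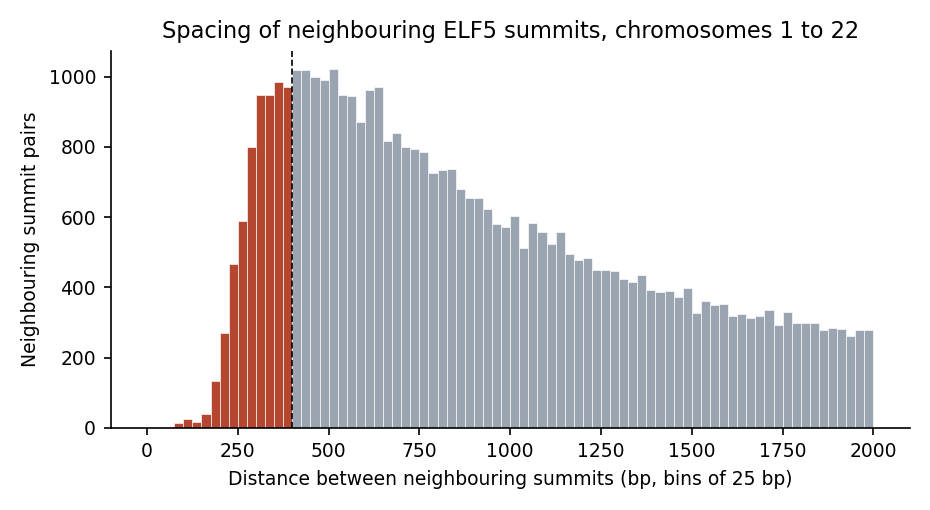
Number of neighbouring summit pairs on chromosomes 1 to 22 by the distance between their summits, in bins of 25 bp up to 2000 bp. Red bars are the 6205 distances under the 400 bp limit (dashed line), and grey bars are longer distances. The bars climb steeply between about 200 and 300 bp, change little up to 400 bp and decline slowly beyond 500 bp.

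Peaks of the tight groups were narrow and weak for this list. Their median width was 194 bp with quartiles at 154 and 269 bp, against a median of 215 bp over all autosomal peaks. Their median fold, the deposited column 7, which behaves as enrichment over local background, was 3.37 with quartiles at 2.88 and 4.28, against 3.65 over all autosomal peaks. Only 355 members, 2.99%, were among the strongest 10% of the list by fold (a fold of 11.99 or more, called strong here), while 9.90% of all autosomal peaks were. The authors' q was under 0.05 for 10053 members, 84.6%, against 87.4% of autosomal peaks. Both members had such a q in 3783 of the 5191 exact pairs, 72.9%, just 1 did in 1246, and neither did in 162. The smallest width, 135 bp, was held by 1127 members, 9.49%, against 9.27% of autosomal peaks. Only 3 members were 2000 bp wide or more, out of 511 such autosomal peaks.

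These contrasts are tied to the rule. Peaks in this list do not overlap, and the facing sides of both peaks plus the gap between them must fit into less than 400 bp. When neighbours were instead linked by a gap of under 100 bp between their edges, at any distance between summits, 10148 peaks were taken, with a median width of 283 bp and a median fold of 4.06, and 14.2% of them were strong. Of the 5288 neighbours with such a gap, 2661, which is 50.3%, had summits under 400 bp apart. Width, fold and the share of strong peaks among close neighbours thus depended on whether closeness was measured between summits or between edges.

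The depth behind a member was low, as it was over the whole list. The fragment pileup recovered from the deposited fold and p had a median of 15, with quartiles at 12 and 20. Over all autosomal peaks the median pileup was 16. The exact Poisson 95% interval of a pileup of 15 runs from 8.40 to 24.7. A member at the median fold of 3.37 had a pileup of 10 over a background of 2 fragments, and the interval of its fold ran from 1.79 to 5.91.

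Within exact pairs, the ratio of the 2 folds was usually small. The folds of all members lay in a narrow range, with quartiles at 2.88 and 4.28. Whether partners were more alike than members of different pairs was not tested. The median stronger member had a fold of 3.97 and the median weaker member 2.98. The ratio of the higher to the lower fold had a median of 1.31, with quartiles at 1.13 and 1.67, and a ratio of 2 or more was seen in 878 pairs, 16.9%. It was 5 or more in 139 pairs and 10 or more in 19. The 95% intervals of the 2 folds overlapped in all but 648 of 5191 pairs. Those 648 were 12.48% of the pairs (exact Clopper-Pearson 95% interval 11.6 to 13.4). Overlap of 2 intervals is no test of their difference, so for the rest it does not settle the order of the members.

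Widths differed somewhat more than folds by median, but ratios of 5 or more were rarer for width than for fold. The wider member of a pair had a median width of 255 bp and the narrower 160 bp. The ratio of the wider to the narrower had a median of 1.43, with quartiles at 1.17 and 1.92, and reached 2 or more in 1185 pairs, 22.8%. It was 5 or more in 90 pairs and 10 or more in 4. Both members had the smallest width in 46 pairs, and 1 member did in 881. The width of one member said little about that of the other, with a Spearman rho between left and right of -0.0055 over the 5191 pairs. For fold, rho was 0.169, and for local background 0.685. These 3 values describe pairs that share a library and, for background, much of the window it is measured in. They were similar for neighbours with summits 400 to 799 bp apart, at 0.0143 for width, 0.158 for fold and 0.622 for background.

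The stronger peak tended to be the wider one. Among 5069 pairs that differed in both values, the member with the higher fold was also the wider in 3442, which is 67.9% (exact 95% interval 66.6 to 69.2). Among the 648 pairs whose fold intervals were apart, it was the wider in 608, or 93.8%, and among pairs with overlapping intervals in 2834 of 4421, or 64.1%. Among neighbours with summits 400 to 799 bp apart, the stronger was the wider in more, 10453 of 14336, or 72.9%. Fold and width also went together over all autosomal peaks, with a Spearman rho of 0.596, and over the members it was 0.436. Left and right members were close to even. The left member, at the lower coordinate, had the higher fold in 51.0% of 5138 pairs with unequal folds and was the wider in 49.2% of 5121 pairs with unequal widths, and both exact intervals, 49.7 to 52.4 and 47.8 to 50.5, hold 50%.

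**Figure D2:**
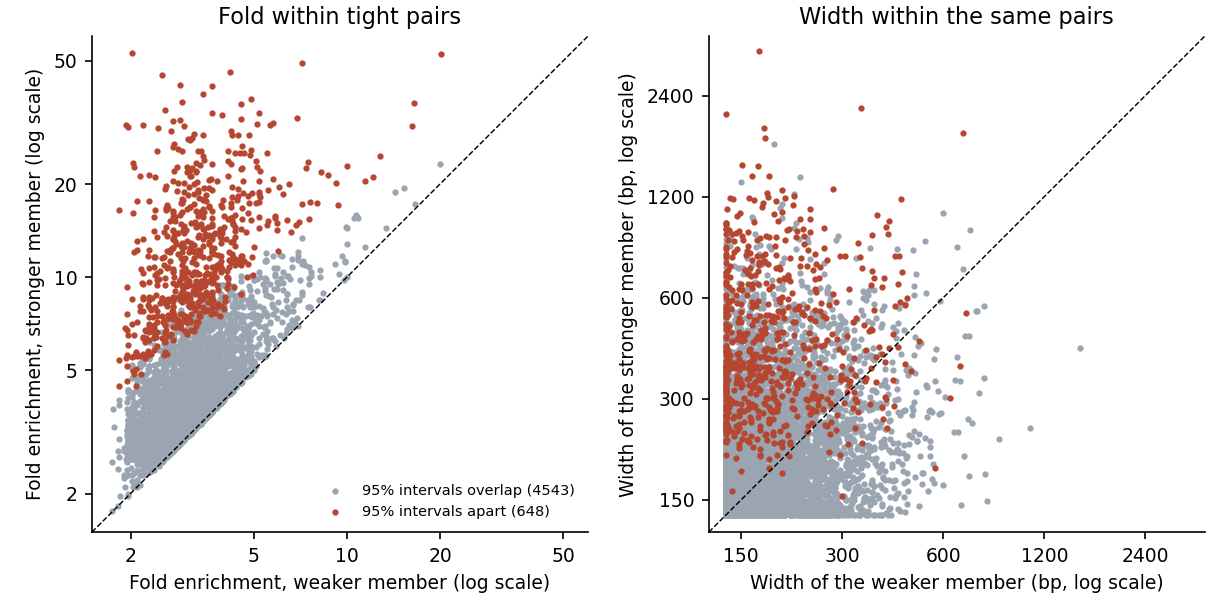
Values within the 5191 exact pairs on log scales, with 1 point per pair and a dashed line where both members are equal. Left, fold enrichment of the stronger against the weaker member, and right, the widths of the same 2 peaks in bp. Red points are the 648 pairs whose 95% counting intervals of the fold do not overlap. On the right most red points lie above the line, where the stronger member is also the wider.

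The 2 members of a pair mostly lay over like backgrounds. The recovered backgrounds of the 2 members had a median ratio of 1.14, were equal to 3 decimals in 526 pairs, or 10.1%, and differed by more than 1.5 times in 893. Of neighbours with summits 400 to 799 bp apart, 9.07% had equal backgrounds. In the 526 pairs with an equal background the median fold ratio was 1.30, close to the 1.31 of the other pairs. The median ratio of pileups was 1.31. In 684 pairs, 13.2%, the member with the higher fold had the lower pileup, so for these pairs the deposited fold and the fragment number rank the members in opposite order.

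Within the tight groups, neighbours with summits further apart were mostly less alike. Over every link, longer chains included, the median fold ratio was 1.23 under 200 bp, 1.22 from 200 to 249 bp, 1.27 from 250 to 299 bp, 1.32 from 300 to 349 bp and 1.35 from 350 to 399 bp. The median width ratio over the same bins was 1.26, 1.29, 1.37, 1.45 and 1.502. Widths and folds themselves also rose with distance. From under 200 bp to 350 to 399 bp the median width went from 161 to 214 bp and the median fold from 2.94 to 3.48. Whether the ratios rose for this reason was not tested. Strong peaks were rare at the shortest spacings, with none among the 228 links under 200 bp and a share of 4.60% in the links of 350 to 399 bp. Beyond the limit the ratios were larger still at first and then smaller. In the 14513 links of 400 to 799 bp the median fold ratio was 1.45, the median width ratio 1.67, and the fold intervals were apart in 26.4%. The median fold ratio was highest, at 1.496, from 600 to 799 bp and was 1.42 from 1500 to 1999 bp, and the median width ratio was highest, at 1.74, from 800 to 999 bp and was 1.65 from 1500 to 1999 bp. Peaks that had a neighbour at 400 to 799 bp and none closer numbered 24286, with a median width of 249 bp and a strong share of 9.39%. In the bins on either side of 400 bp, 350 to 399 and 400 to 499 bp, the median fold ratios were 1.35 and 1.41 and the median width ratios 1.502 and 1.61.

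The side of a peak that faces its partner was the shorter one. In exact pairs the median length from summit to facing edge was 93 bp, against 109 bp from summit to outer edge, and the outer side was the longer in 6624 of 10322 members with unequal sides, 64.2%. Autosomal peaks outside tight groups had median sides of 108 bp on the left and 112 bp on the right. The facing side was 42 bp at distances under 200 bp and 106 bp at 350 to 399 bp, while the outer side stayed between 104 and 118 bp. By construction, the distance between summits limits the facing side and not the outer side.

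**Figure D3:**
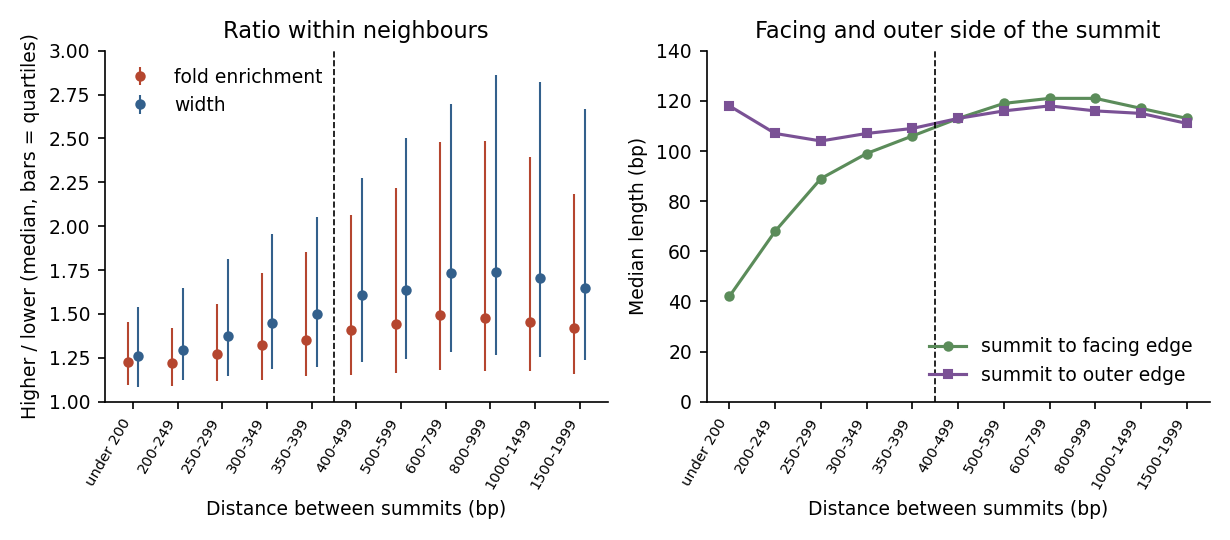
Neighbouring peaks by the distance between their summits, with every link counted and the 400 bp limit dashed. Left, the ratio of the higher to the lower fold (red) and of the larger to the smaller width (blue), as median and quartiles. Right, the median length in bp from the summit to the edge facing the neighbour (green) and to the outer edge (purple). The median fold ratio goes from 1.23 under 200 bp to 1.496 at 600 to 799 bp and back to 1.42 at 1500 to 1999 bp, and the facing side reaches the outer side at about 400 bp.

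The bare stretch between the 2 peaks was short. The gap between facing edges of linked peaks had a median of 112 bp with quartiles at 75 and 156 bp, and 2661 gaps, 42.9%, were under 100 bp. No gap between neighbouring autosomal peaks was below 51 bp, in tight groups or elsewhere. Joining peaks across gaps of under 100 bp would therefore merge 42.9% of the tight links into wider peaks.

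Pairs with a strong peak were of 2 kinds. In 307 pairs, 5.91%, just 1 member was strong, and in 10 pairs both were, while 4874 pairs held none. Where 1 member was strong, its median fold was 16.9 and that of its partner 3.49, above the 2.98 of weaker members in all pairs. The wider peak of these pairs had a median of 479 bp and the narrower 182 bp, and the strong one was the wider in 288 of 307. The strong peak reached 310 bp from its summit on the outer side and 168 bp on the facing side, by medians. By median, the partner's fold of 3.49 was near the 3.37 of all members. The narrower peak, at 182 bp, was near the 194 bp of all members and wider than the 160 bp of narrower members in all pairs.

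The 10 pairs of 2 strong peaks had summits 328 to 387 bp apart and gaps of 51 to 110 bp, of which 9 were under 100 bp. Their weaker members had folds from 12.1 to 20.1 and their stronger members from 14.5 to 52.8. The intervals were apart in 5 of the 10.

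The 5 pairs with the highest folds in their weaker member, all of them among these 10, are described one by one. The first was in band 16p11.2. Its left peak covered chromosome 16 from 29605951 to 29606187 (237 bp) at a fold of 20.1 (95% interval 15.4 to 25.7), and its right peak covered 29606268 to 29607101 (834 bp) at a fold of 52.8 (45.0 to 61.5). Both lay over a background of 1.81 fragments, the lowest in the list, so the difference was one of pileup, 61 against 162. Another pair in 16p11.2 had the same layout and the same background. Its left peak, from 30346037 to 30346276, had a fold of 16.2 (12.1 to 21.3), and its right peak, from 30346363 to 30346884, a fold of 30.8 (24.9 to 37.6).

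In 2 of the 5, the members were even. In 2q37.3 the peaks from 238499034 to 238499601 and from 238499657 to 238500449 on chromosome 2 had folds of 23.2 (18.96 to 28.2) and 20.03 (16.5 to 24.1), with 55 bp between them. Here the left peak had the higher fold and the right the higher pileup, 109 against 101, over backgrounds of 4 and 3. In 14q24.1 the peaks from 69864618 to 69865192 and from 69865248 to 69865709 on chromosome 14 had folds of 17.3 (14.0 to 21.1) and 16.6 (13.6 to 19.96). In both pairs the intervals of the members overlapped. The last of the 5 described, in 12q24.31, was uneven. Its left peak, from 121124034 to 121124413 on chromosome 12, had a fold of 16.5 (13.1 to 20.4) and its right peak, from 121124479 to 121125538, a fold of 36.4 (31.7 to 41.7).

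The 5 most unequal pairs set a strong peak beside one with a fold of 1.93 to 2.90. In 8p21.3 the left peak covered chromosome 8 from 22596355 to 22597269 (915 bp) at a fold of 53.0 (45.6 to 61.2), the highest of any member. Its right partner, from 22597324 to 22597474 (151 bp), had a fold of 2.02 (1.07 to 3.55) and an authors' −log10 q of 0.293. The fold ratio was 26.2 and the ratio of pileups, 183 against 10, was 18.3, and the weak peak also lay over the higher background, 4 against 2.16 fragments. The weak summit stood 16 bp from its facing edge. In 2p22.1 the same arrangement recurred, with a peak of 1198 bp from 38977587 to 38978784 on chromosome 2 at a fold of 44.9 (38.6 to 52.1) and a peak of 180 bp from 38978858 to 38979037 at 2.52 (1.34 to 4.43). The weak summit there was 10 bp from its facing edge.

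The next 3 pairs by ratio were in 16q22.1, 15q25.2 and 16q12.2. On chromosome 16 the peak from 67260544 to 67261203 had a fold of 31.0 (26.5 to 36.2) and its partner, from 67261271 to 67261431, a fold of 1.93 (1.19 to 2.99). In 15q25.2 the weak peak was on the left, from 83348793 to 83348988 on chromosome 15, at 1.96 (1.14 to 3.20), and the strong one, from 83349121 to 83349704, had a fold of 30.5 (25.4 to 36.4). The pair in 16q12.2 differed from the other 4 in width. Its strong peak, from 54227397 to 54227937, was 541 bp wide with a fold of 41.7 (35.4 to 48.7), and its weak partner, from 54228000 to 54228698, was wider, at 699 bp, with a fold of 2.90 (1.78 to 4.48) and a −log10 q of 2.47. The authors' −log10 q of the weak peak was 0.960 in 2p22.1, 0.557 in 16q22.1 and 0.272 in 15q25.2. Of the 5 weak peaks, only the one in 16q12.2 had a q under 0.05. In all 5 pairs the weaker peak had the higher background. A higher background lowers the fold, so the choice of pairs by fold ratio favours this, and it is no separate result.

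**Figure D4:**
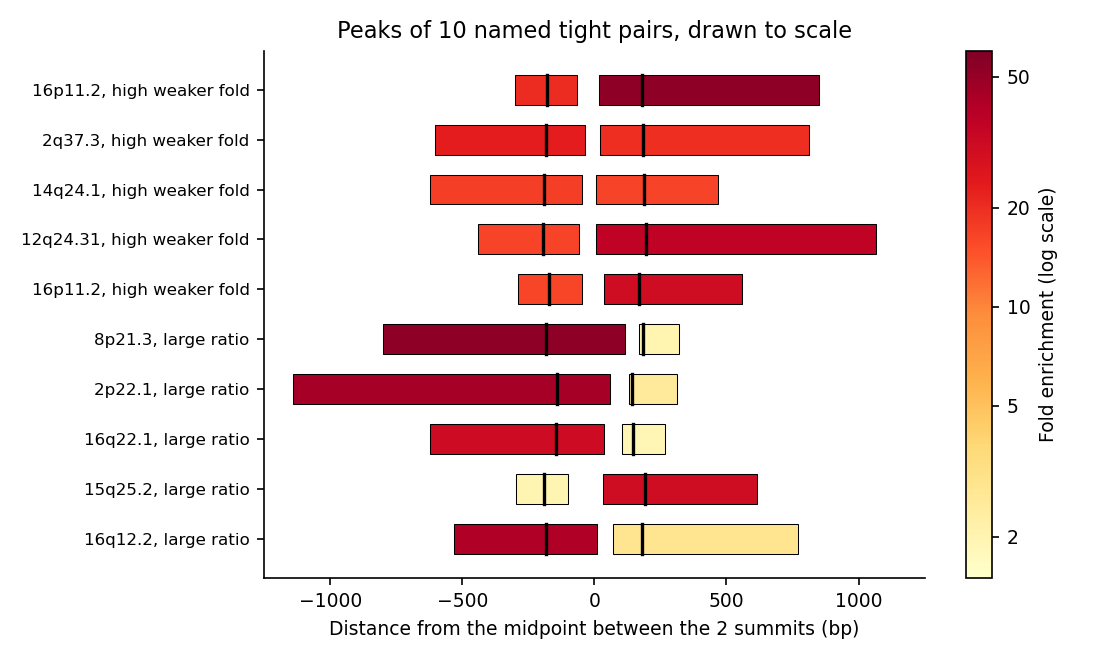
Extent of both peaks in 10 named pairs, drawn to scale around the midpoint between the summits (x axis, bp). Each bar is a peak coloured by fold on a log scale, and black ticks are summits. The upper 5 pairs have the highest fold in the weaker member and the lower 5 the largest fold ratio, from 14.4 in 16q12.2 to 26.2 in 8p21.3.

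Of the pair members, 51 were 1000 bp wide or more, each in a different pair. The rule keeps the facing side under 400 bp, so the longer side of so wide a peak must point away from its partner. Their median facing side was 181 bp and their median outer side 995 bp. The partner had a median width of 188 bp and a median fold of 3.44, against 14.3 for the wide member, which was the stronger in 49 of 51 pairs.

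The widest member, a 12q13.3 peak that covered 3258 bp of chromosome 12 from 57480782 to 57484039, had a fold of 9.79 (7.85 to 12.1), and its summit was 180 bp from the right edge. Its partner, from 57484193 to 57484361, was 169 bp wide with a fold of 2.44 (1.36 to 4.11), which gave the largest width ratio of all pairs, 19.3. In 21q22.3 a peak of 2107 bp from 43429176 to 43431282 on chromosome 21, at a fold of 18.6 (14.7 to 23.3), stood beside a peak of the smallest width from 43431404 to 43431538, at 3.21 (1.82 to 5.31). In 12p13.33 the wide peak was on the right, 1925 bp from 3067844 to 3069768, at 21.9 (18.1 to 26.1), with a partner of 175 bp from 3067578 to 3067752 at 3.05 (1.90 to 4.67).

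The other 2 pairs of this kind had partners wider than the median member. In 13q14.11 a peak of 2209 bp from 41238753 to 41240961 on chromosome 13 had a fold of 17.2 (13.1 to 22.2), and its partner, 340 bp from 41238354 to 41238693, a fold of 9.35 (6.75 to 12.6). In 18q21.1 a peak of 1854 bp from 46475669 to 46477522 on chromosome 18 had a fold of 18.5 (14.2 to 23.8), and its partner, 685 bp from 46474912 to 46475596, a fold of 5.21 (3.17 to 8.15). In all 5 pairs the wide peak was the stronger and the intervals were apart.

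Since no gap was below 51 bp, the closest summits had to lie near the facing edges of their peaks. The smallest distance, 71 bp, was in 11q12.2 between a peak of 201 bp from 60748986 to 60749186 on chromosome 11 and one of 135 bp from 60749238 to 60749372. The summits were 7 and 12 bp from the facing edges, and the folds were 2.30 (1.28 to 3.87) and 2.44 (1.44 to 3.92). In 11q13.1 the summits were 78 bp apart and only 2 and 4 bp from the facing edges of peaks from 64257095 to 64257311 and from 64257383 to 64257668, at folds of 2.29 (1.33 to 3.73) and 2.17 (1.34 to 3.36). In 3p21.2 summits 82 bp apart belonged to peaks from 52187783 to 52187917 and from 52187974 to 52188124 on chromosome 3, at folds of 3.62 (2.02 to 6.09) and 2.52 (1.34 to 4.43), with facing sides of 19 and 6 bp. The intervals of the members overlapped in all 3 pairs. The authors' −log10 q was 0.542 and 1.12 in 11q12.2, 0.748 and 1.01 in 11q13.1, and 2.33 and 0.960 in 3p21.2. Of these peaks, only the left one in 3p21.2 had a q under 0.05.

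The members nearest to the limit were as follows. The first 3 pairs at 399 bp, in 1p36.11, 1p34.2 and 1p13.3, had folds of 7.48 and 5.27, of 7.75 and 5.39, and of 12.1 and 2.94. The first 3 neighbours at 400 bp, in 1p36.11, 2q35 and 3p25.3, had folds of 3.48 in both peaks, of 4.34 and 4.36, and of 5.87 and 3.35. The stronger fold was higher in each of the 3 pairs at 399 bp than in any of the 3 neighbours at 400 bp. With 3 of each, taken in genome order, these values only place the limit.

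In groups of 3 peaks the middle one was the narrowest more often than the widest. The middle peak was the narrowest, ties included, in 183 of 437 groups and the widest in 95, and its median width was 174 bp against 196 bp for the flanking peaks. Both sides of a middle peak face a neighbour. By fold the middle peak was the highest in 130 groups and the lowest in 150, with a median of 3.25 against 3.30 for the flanks. The summits of a group spanned a median of 624 bp, and the highest fold of a group was 1.503 times the lowest by median.

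The longest chain held 6 peaks in 8q24.22, from 132051647 to 132053400 on chromosome 8, with summits spanning 1354 bp at steps of 280, 287, 284, 252 and 251 bp. Its folds were 3.67, 4.17, 4.16, 4.52, 2.77 and 3.33, and its pileups were 10 to 17 over backgrounds of 2.58 to 2.74 fragments. The chain in 5p15.33, from 756984 to 758628 on chromosome 5, had 5 peaks at folds of 2.81, 2.04, 2.25, 2.45 and 3.65, with pileups of 28 to 49 over backgrounds of 10.9 to 14. That background was well above the members' median of 3.25. The chain in 10q11.21, from 43570894 to 43573436 on chromosome 10, had 5 peaks at folds of 3.84, 3.11, 3.44, 1.93 and 5.73. Its last peak was 1195 bp wide and the others 135 to 365 bp. None of these 16 peaks was strong.

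Tight groups were most frequent where peaks were dense. After joining peaks within 10 kb, 54.3% of members lay in regions of 10 or more peaks, against 37.2% of all autosomal peaks, and 14.4% lay in regions of 50 or more, against 8.25%. The next summit outside an exact pair was at a median of 1184 bp, and within 1000 bp for 2257 pairs, 43.5%. A minority stood apart from other peaks. No further peak lay in the joined region of 570 pairs, and in 581 pairs the next summit was more than 10000 bp away. Since the rule selects close summits, these shares describe the members and are no separate result.

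The share of a chromosome's peaks in tight groups ran from 5.25% on chromosome 18 (65 of 1238 peaks, exact 95% interval 4.08 to 6.64) to 13.1% on chromosome 16 (794 of 6064, 12.3 to 13.97). Chromosomes 9 and 17 followed with 12.4% and 12.1%. The intervals of these shares, and of those for bands below, treat single peaks as independent. By the rule a member's neighbour is also a member, so these intervals are too narrow. The share went with peak density over the 22 autosomes, with a Spearman rho of 0.772 and a Pearson r of 0.619, values that describe chromosomes of 1 list in which denser peaks are also closer. Chromosome 19 was dense, at 93.6 peaks per Mb, but had 9.71% of its peaks in tight groups, and chromosome 17, at 99.6 per Mb, had 12.1%. The median fold ratio within pairs ran from 1.25 on chromosome 21 to 1.44 on chromosome 13, and the median width ratio from 1.33 on chromosome 3 to 1.63 on chromosome 19.

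**Figure D5:**
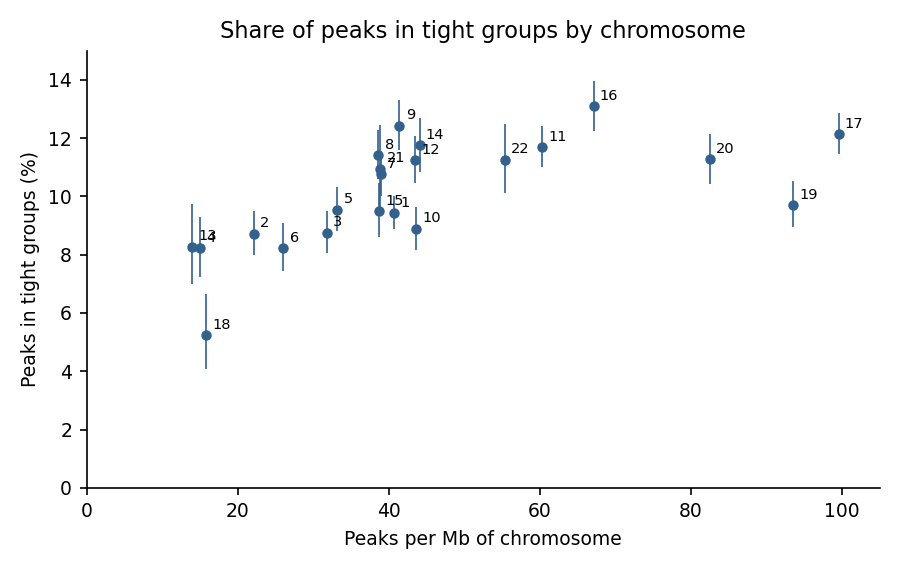
Share of each autosome's peaks in tight groups (y axis, %) against its peaks per Mb (x axis), with points labelled by chromosome. Bars are exact 95% binomial intervals that treat single peaks as independent and are too narrow, since members come in groups. Chromosome 18 is lowest at 5.25% and chromosome 16 highest at 13.1%, and chromosome 19 is dense but near the middle at 9.71%.

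By Giemsa stain, the share of peaks in tight groups was 11.1% in unstained bands (gneg), and lower with each darker class, from 10.3% (gpos25) through 8.66% (gpos50) and 8.13% (gpos75) to 6.84% in gpos100. Per Mb, members numbered 6.85 in gneg and 0.746 in gpos100. Centromeric bands, sparse in peaks at 7.13 per Mb, went against this order. There 121 of 700 peaks were members, 17.3% (exact 95% interval 14.6 to 20.3), spread over 15 bands, with 28 of them in 12p11.1. Their median background was 2.70 fragments, against 2.92 for the other peaks of centromeric bands, their median fold 3.49, and 1 of them was strong. Bands of the gvar class were sparser still, at 2.89 peaks per Mb, and 30 of their 283 peaks, 10.6%, were members. Peaks were denser in gpos25 than in gneg bands, at 65.5 against 61.5 per Mb, although the share was lower.

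Among 154 bands of at least 2 Mb and 200 peaks, the median share was 10.5%. The highest was in 7p22.3, where 203 of 1088 peaks were members, 18.7% (16.4 to 21.1), followed by 11q13.2 with 18.4% and 5p15.33 with 17.8%. The lowest was in 18q23, with 2 of 216 peaks, 0.926% (0.112 to 3.30). These bands were picked after their values were seen.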

How the data were processed

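Peaks came from 1 list that the authors deposited, on hg19 per its track header, whose name mentions IDR and 1-3. Details of alignment, peak calling and pooling were not given in the sources used here. Deposited values used were the fold (column 7, a ratio), the −log10 p and the −log10 q of each peak. The deposited score equals the whole part of 10 times −log10 p in all 115384 peaks and was left aside.

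From fold and p, the whole pileup and the local background of each peak were recovered, assuming a pileup multiplied by 0.910, 1 added to pileup and background before their ratio is taken, and a Poisson tail. Every −log10 p was met within 0.001, and 95 peaks had another solution. A fold's interval is the exact Poisson 95% interval of its pileup with the background held fixed, and ignores that a summit is a maximum. Intervals of shares treat pairs as independent or, for chromosomes and bands, single peaks, although members come in groups by the rule. Read depth of the samples is unknown here.

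Members, the rules for named pairs (highest weaker fold, largest fold ratio, largest summed width, closest summits, longest chains, nearest to the limit) and alternatives were chosen with earlier results of these data known. Recovery and linking were tested on simulated data. Python 3.11.15 with scipy 1.17.1, numpy 2.4.6, pandas 2.3.3 and, for plots, matplotlib 3.10.9 was used, and cytogenetic bands were those of circlize 0.4.16 under R 4.3.3. Positions count from 1.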

Additional observations from a re-analysis of the deposited data

How the results depend on the processing

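Of 67 alternative values, 44 moved. A change of direction could be recorded only for the share of pairs in which the stronger was the wider, and none was. Medians and shares were taken to move when they fell outside the 95% interval of the reported value, which is narrow here, and counts when they changed by over 1.5 times. With a limit of 300 bp there were 4638 members and 2214 pairs. The median fold ratio was 1.25, the width ratio 1.33, the stronger was the wider in 62.8%, the members' median width was 176 bp and fold 3.26, 0.949% were strong, intervals were apart in 6.23% and the median gap was 86 bp. With a limit of 500 bp there were 19068 members, and the same values were 1.34, 1.496, 69.99%, 206 bp, 3.46, 4.46%, 16.9% and 135 bp. Among peaks with the authors' q under 0.05, the fold ratio was 1.27, the width ratio 1.46, the median width 200.0 bp, the median fold 3.62, 3.61% were strong and intervals were apart in 13.5%. In the highest 50% of folds, which raises fold by construction, there were 2322 members and 1098 pairs, with values in the first order of 1.35, 1.55, 71.7%, 235 bp, 4.75, 7.58%, 19.7% and 99 bp. Linking by an edge gap of under 100 bp gave 1.598, 1.80, 76.4%, 283 bp, 4.06, 14.2%, 35.2% and 72 bp. Members by the edge gap were thus wider and more often strong than all autosomal peaks (215 bp and 9.90%). Members by the 400 bp rule were narrower and less often strong than these. Ranking by −log10 p in place of fold, the stronger was the wider in 69.3%. Adding X and Y, counting every link, or using pileups for the fold ratio moved none of the values they were applied to. No paired analysis was possible because values per replicate were not part of the list, and for the same reason no replicate could be left out. At pileups of about 15, the fold intervals overlapped in most pairs.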
